A study of Mus musculus with 22 samples.

Results

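The 87 genes described here encode nuclear-encoded subunits of the mitochondrial oxidative phosphorylation complexes, measured in the cerebellum of 2 mouse lines with an expanded polyglutamine tract. They were chosen by gene symbol alone, as symbols starting with Ndufa, Ndufb, Ndufc, Ndufs, Ndufv, Sdha to Sdhd, Uqcr, Cox4 to Cox8 or Atp5, out of 12393 genes that have a probe set with 1 symbol. Complex I held 33 of them, complex II 4, complex III 8, complex IV 17 and complex V 17. The other 8 are assembly factors that the prefixes also catch (Ndufaf1, Ndufaf3, Ndufaf4, Ndufaf5, Ndufaf7, Sdhaf1, Sdhaf2 and Sdhaf4). Ndufa4 was counted with complex IV, where the protein is now placed, and Cox7a2l, an assembly factor of supercomplexes, stayed with complex IV by its symbol. The 8 probe sets of these families that list several symbols were left out, so subunits such as Ndufb4, Ndufa11 and Ndufs6 are not described.

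Total cerebellar RNA came from female mice, 1 array per mouse, 22 arrays in all. Sca1154Q/2Q knock-in mice (the name joins the gene and its allele lengths) carry a long CAG repeat in 1 copy of Atxn1 and were compared with wild type, 3 against 3 at 4 weeks and 3 against 3 at 9 to 12 weeks, on C57BL/6J after 5-8 generations of backcrossing. The older mice were not all of 1 age, since both mice numbered 4 were sampled at 9 weeks and those numbered 5 and 6 at 12 weeks. Sca7266Q/5Q knock-in mice carry the repeat in 1 copy of Atxn7 and were compared with wild type at 5 weeks, 5 against 5, after 10 generations of backcrossing to C57BL/6J. The submitters place all knock-in mice at an early symptomatic stage, and the knock-in alleles act in every cell type that uses the gene. The labels call the arrays biological replicates.

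Oxidative phosphorylation moves electrons from NADH through complex I, or from succinate through complex II, to complex III and on to complex IV, which reduces oxygen. Complexes I, III and IV pump protons across the inner mitochondrial membrane, and complex V, the ATP synthase, uses the gradient to make ATP. In the cerebellum this supply carries the firing of Purkinje cells and the very many small granule cells. Some core subunits of complexes I, III, IV and V are encoded in mitochondrial DNA, and the rule covers only nuclear genes.

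All values are deposited log2 values, so a difference of 1 is a factor of 2 on the array's scale. A difference is called where its Benjamini-Hochberg adjusted p in limma, over all genes tested in that table, is under 0.05. After the dimmest 25% of probe sets were left out, 85 of the 87 members were tested in each table. Cox8c, the testis form of subunit 8, fell below the limit in both tables, as did Cox6a2, the heart and muscle form of subunit 6a, in the Sca1 table and Cox4i2, a form known from lung, in the Sca7 table. The levels of different probe sets cannot be ordered, so each member is compared only with itself. The levels of the 2 tables were never set against each other, only the signs of their differences.

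The members are spread over 19 chromosomes, and nuclear respiratory factor 1 and GA-binding protein are the transcription factors best known for acting on such genes. The bases upstream of the members' starts were read for 3 letter strings known for these factors. RefSeq promoters (GRCm38.p6, 250 bases before the start) matched 73 members with 78 promoters. Searched on both strands, the core TGCGCA of the nuclear respiratory factor 1 site occurred in 15 of 78 (19.2%), against 8.06% of 21263 protein-coding promoters of the same length. The 10-base palindrome of that factor, which can overlap the core, occurred in 4 (5.13%, against 1.07%), and the GA-binding protein core CCGGAAG in 14 (17.9%, against 8.98%). The median GC content was 57.4% in the members' promoters and 55.6% in protein-coding promoters. A match is a run of letters and not a shown binding site. The 4 promoters with the 10-base palindrome are shown because they carry the longest match, as stretches of 60 bases on the gene's strand, 5′ to 3′, with the palindrome in capitals. They lie at chr4:24897945-24898004 (+ strand, Ndufaf4), chr5:108434415-108434474 (- strand, Atp5k), chr5:115349086-115349145 (- strand, Cox6a1) and chr15:102671055-102671114 (- strand, Atp5g2).
Ndufaf4: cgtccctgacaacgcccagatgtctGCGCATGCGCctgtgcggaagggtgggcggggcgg
Atp5k: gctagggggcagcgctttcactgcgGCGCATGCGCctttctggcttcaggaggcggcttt
Cox6a1: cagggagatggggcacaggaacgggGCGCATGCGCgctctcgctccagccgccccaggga
Atp5g2: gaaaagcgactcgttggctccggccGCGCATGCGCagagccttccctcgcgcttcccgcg
The palindrome starts 113 bases before the start of Ndufaf4, which serves complex I assembly, and 162 bases before that of Cox6a1, the common form of subunit 6a. It starts 50 bases before Atp5k, the small e subunit of ATP synthase, and 42 bases before Atp5g2, 1 of the genes for the c ring.

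The arrays were those of cerebellum by their markers. The Purkinje cell markers Pcp2 and Calb1 and the granule cell markers Gabra6, Neurod1 and Zic1 were bright, whereas Ckm of muscle and Ucp1 of brown fat stayed near the bottom of the scale. Other genes of those lists did not: Cidea, also a brown fat marker, ran from 6.25 to 7.89 in the Sca1 table, and Acta1 of muscle averaged 6.11 in the Sca7 table. Atxn1 was too dim to test, and Atxn7 was not called in the Sca7 line (4.63 ± 0.38 in knock-in against 4.50 ± 0.68 in wild type, SD, n = 5, adjusted p = 0.987 in limma), so neither targeted gene checks the labels. The difference between the 3′ and 5′ actin control probe sets, a measure of RNA quality, ran from 1.12 to 1.37 in the Sca1 arrays and from 0.749 to 0.997 in the Sca7 arrays. No pair of arrays held identical values.

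No genotype difference of a member was called in either line, which does not show that the levels were equal. In the Sca1 line at 4 weeks none of the 85 members tested was called (0% of all genes was), and 36 of 85 were above 0 (50.4% of all genes). Again none was called at 9 to 12 weeks (0.148% of all genes, 14 in number), and 57 of 85 were above 0 (48.1%). This count rested on single arrays, with 36 of 85 (median -0.023) without knock-in replicate 6 and 76 of 85 (median 0.13) without knock-in replicate 5. The 4-week count became 54 without knock-in replicate 3 and 24 without wild-type replicate 2. None was called in the Sca7 line (0% of all genes), and 52 of 85 were above 0 (52.9%). Among the 401 genes at or above the members' median level in that table, 68.3% were above 0, with a median of 0.021. The median difference of the members was -0.017, 0.040 and 0.010 in these 3 comparisons, beside -0.0073 to 0.0048 over all genes tested.

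Without adjustment, limma's p was under 0.05 for 1 member in each direction at 4 weeks (2.68% of all genes above and 3.07% below), for 3 above and 2 below at 9 to 12 weeks (2.59% and 6.6%), and for 1 above and 0 below in the Sca7 line (2.08% and 1.61%). The average of both ages in the Sca1 line, 6 arrays against 6, called no member (0.349% of all genes), with 5 above and 2 below at an unadjusted p under 0.05 (4.78% and 8.11%) and 50 of 85 above 0 (48.3%). The change of the genotype difference between the ages called no member either (0% of all genes). There 0 members were above and 1, Cox6b2, below at an unadjusted p under 0.05 in limma (0.741% and 1.49%), and 60 of 85 differences were above 0 (42.3%). No member lay wholly above or below wild type in the Sca7 line (0.401% and 0.148% of all genes). Most of these shares lie near those of all genes.

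**Figure D1:**
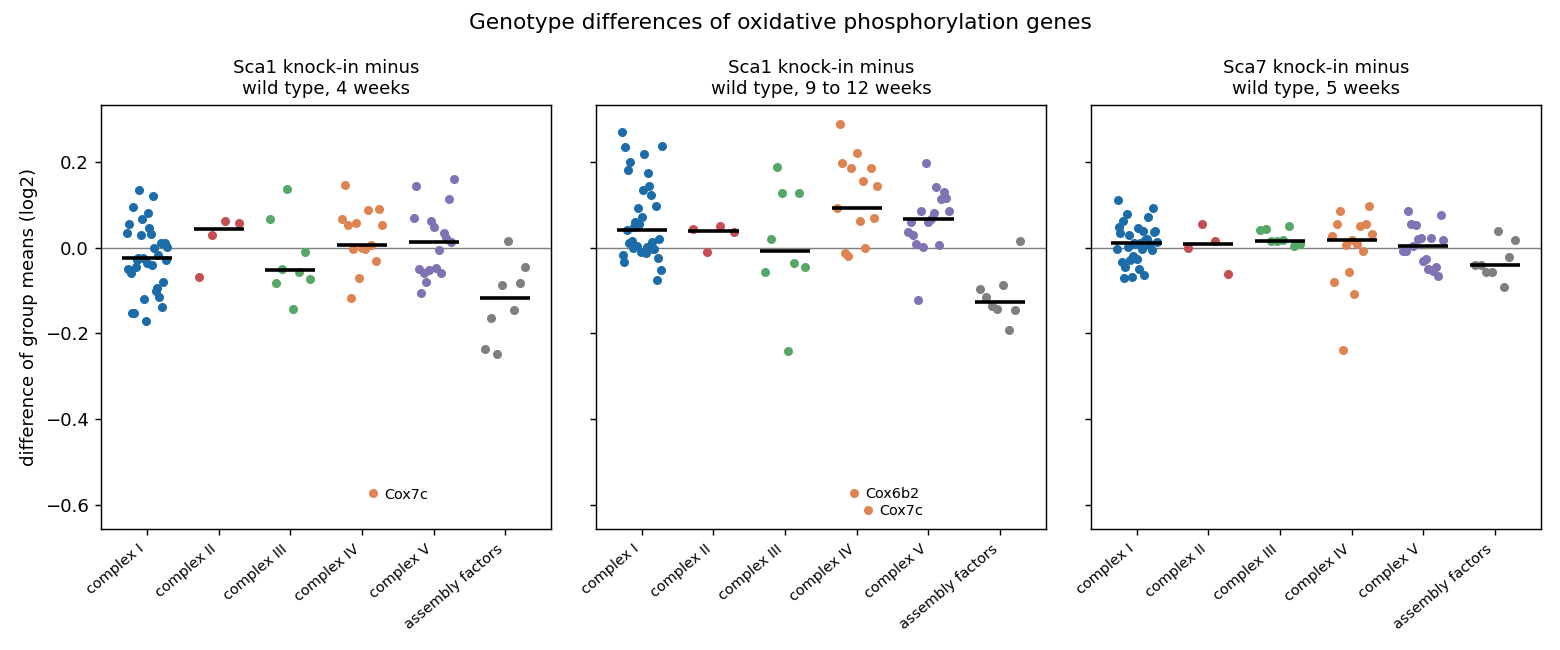
Differences of group means (log2, knock-in minus wild type) of the 85 members tested in each table, by respiratory complex, for the Sca1 line at 4 weeks (3 against 3 arrays), at 9 to 12 weeks (3 against 3) and the Sca7 line at 5 weeks (5 against 5). Each point is 1 gene and each bar the median of its complex. Most points lie within 0.3 of 0. Cox7c lies lowest at both Sca1 ages, followed by Cox6b2 at 9 to 12 weeks only. At each Sca1 age 7 of 8 assembly factors lie below 0.

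The 95% confidence intervals of the limma fit, not adjusted for the number of genes, show how precisely each difference was measured. They do not give the smallest change that could be called, since a call rests on the adjusted p. Cox6b2 at 9 to 12 weeks was not called although its interval held only lower values. The intervals use a common variance for all groups, though the members' median SD was largest in the older Sca1 knock-in mice. In the Sca7 line the interval of all 85 members lay within a change of 1.5-fold in either direction, and for 82 it lay within 1.25-fold (80.0% of all genes). The median half-width was 0.096 for the members and 0.15 for all genes. In the Sca1 line the interval lay within 1.5-fold for 84 of 85 at 4 weeks and for 81 at 9 to 12 weeks, the exceptions at the older age being Cox6b2, Cox7c, Sdhaf1 and Uqcrc2. Within 1.25-fold it lay for 55 and 38 members (29.9% and 30.5% of all genes), with a median half-width of 0.24 for the members and 0.28 for all genes.

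Much of the spread of the members was shared by whole arrays. In the knock-in mice of 9 to 12 weeks, replicate 6 held the highest value of the 3 mice for 57 of 85 members (67.1%, against 24.7% of all genes). Replicate 5 held the lowest for 70 of 85 (82.4%, against 46.8%). In wild type of 4 weeks replicate 2 was lowest in 62 and replicate 3 highest in 54 members, and in knock-in of 4 weeks replicate 3 was lowest in 59.

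The median deviation of the members from their own means was 0.071 in knock-in replicate 4 of the older group, -0.12 in replicate 5 and 0.13 in replicate 6. The cytosolic ribosomal proteins moved alike in these arrays (0.17, -0.051 and 0.31), and so did the mitochondrial ribosomal proteins (0.15, -0.11 and 0.16). Markers of granule cells did not follow that order (-0.44, 0.0070 and -0.14). In the same 3 arrays the 3′ to 5′ difference was 1.373, 1.218 and 1.33 for actin and -0.01, 0.107 and 0.138 for Gapdh, so replicate 5 was lowest for actin and not for Gapdh. The part of RNA quality and cell makeup in this shared spread was not tested, and in RNA of whole cerebellum fewer cells of a type and less RNA per cell cannot be told apart.

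**Figure D2:**
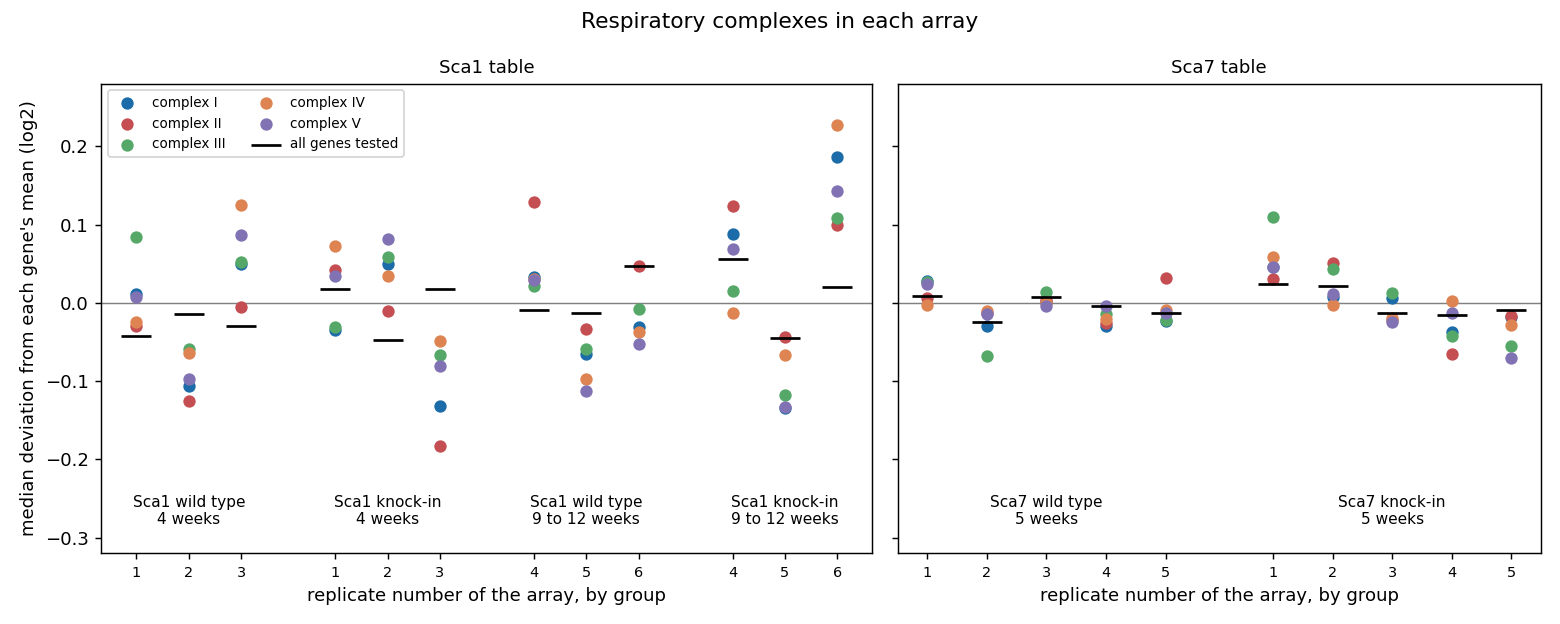
Median deviation of complexes I to V in each array (log2, relative to each gene's mean over its table), by group and replicate number, with bars for the median of all genes tested. In the Sca1 knock-in mice of 9 to 12 weeks all 5 complexes are above 0 in replicate 6 and below 0 in replicate 5, and in the Sca7 arrays all medians stay between -0.070 and 0.11.

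The typical spread differed between the groups. The median SD of a member was 0.093 in Sca1 wild type and 0.12 in knock-in of 4 weeks, 0.10 in wild type and 0.18 in knock-in of 9 to 12 weeks, and 0.060 and 0.063 in wild type and knock-in of the Sca7 line. In 5 of these 6 groups the members varied less than the median of all genes, and in the older Sca1 knock-in mice more (0.16 for all genes). There Ndufc1, a small membrane subunit of complex I, had the widest spread, with 9.86, 10.19 and 10.79 in replicates 4, 5 and 6.

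**Figure D3:**
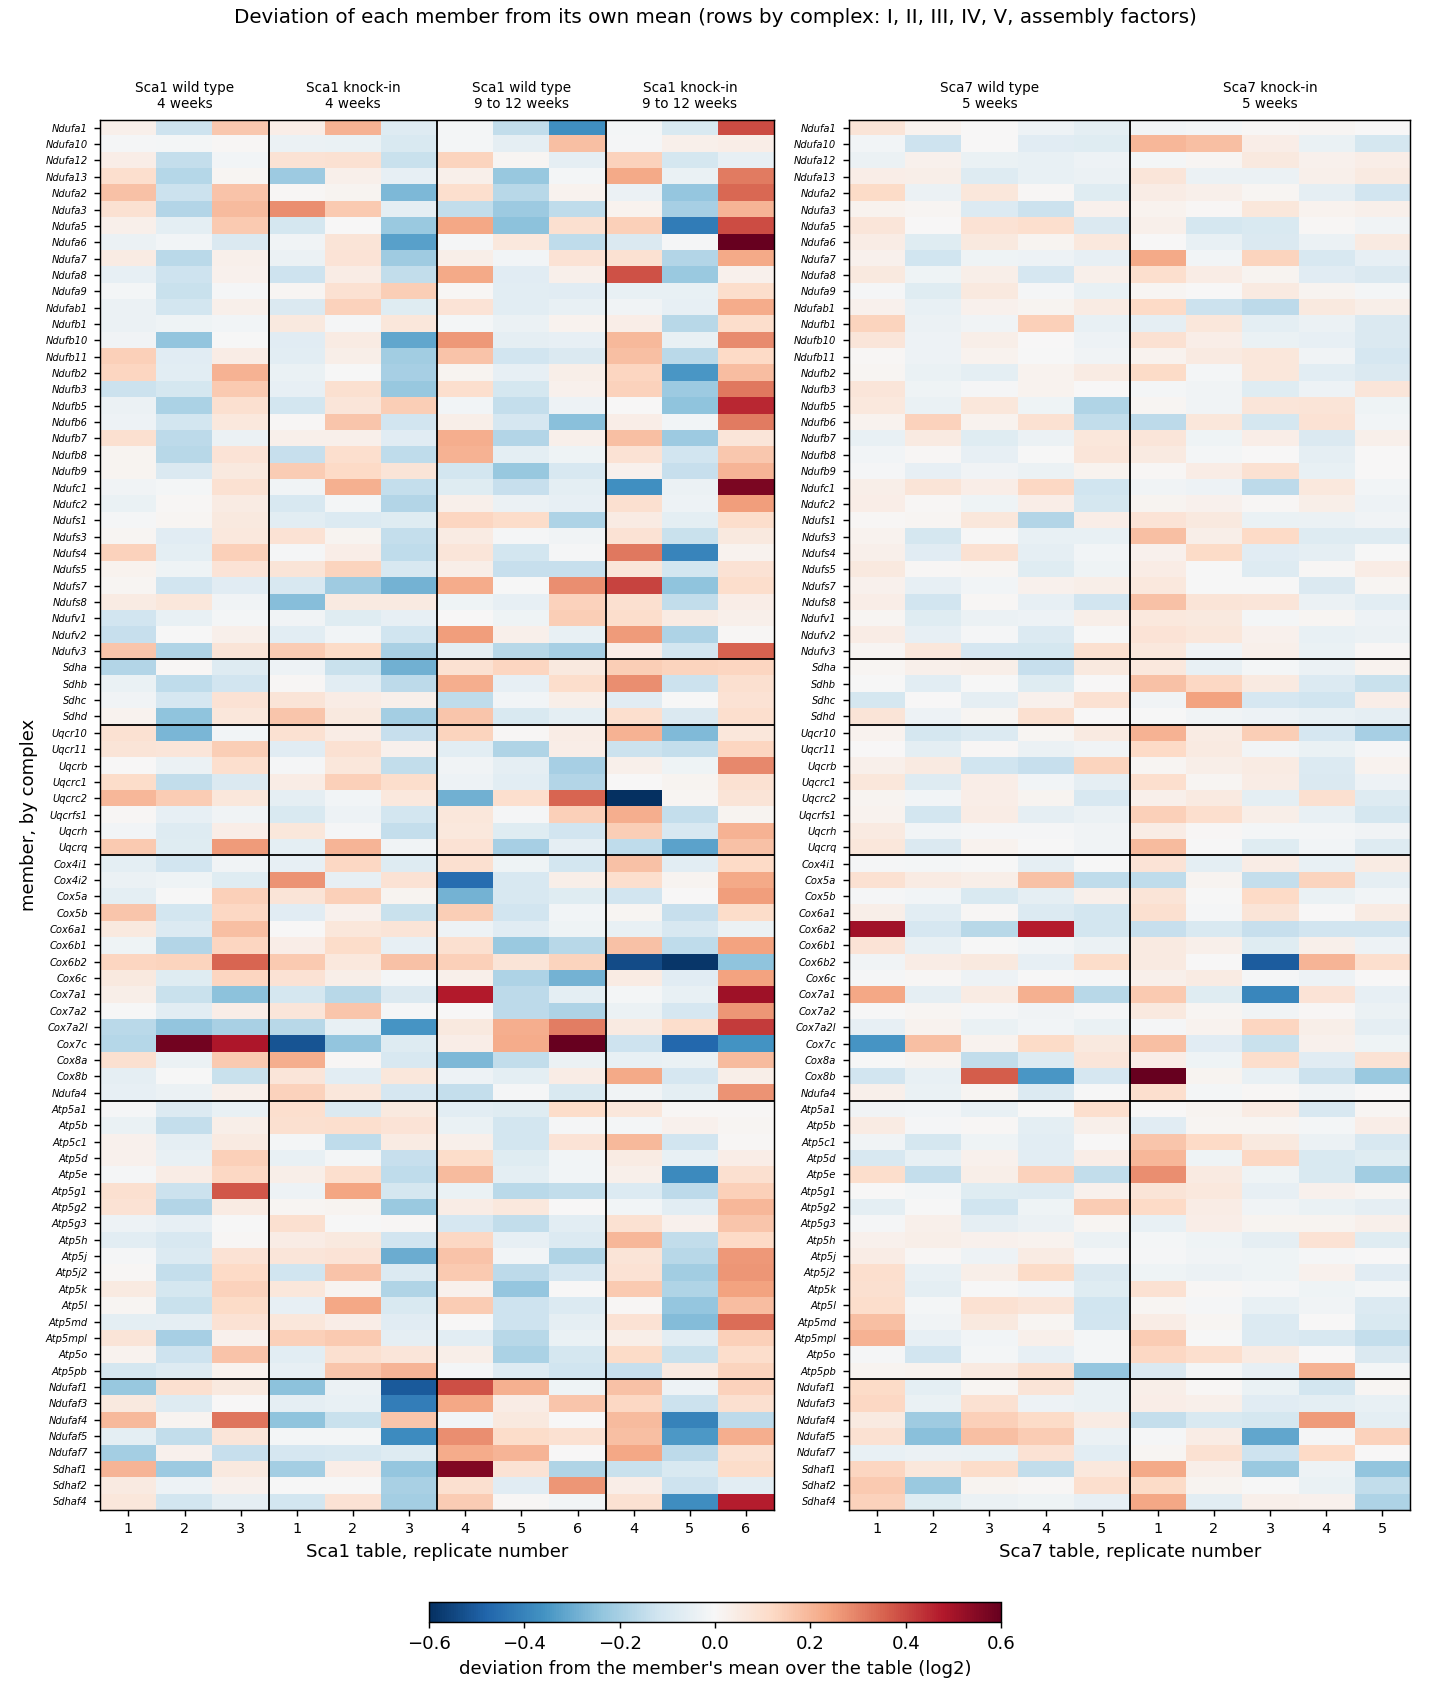
Deviation of every member tested from its own mean over the table (log2), with 1 row per gene ordered by complex and 1 column per array, colours clipped at 0.6 in either direction. Whole columns share a tint in the Sca1 table, most clearly knock-in replicates 5 and 6 of 9 to 12 weeks, and only single cells such as Cox6a2, Cox6b2 and Cox8b stand out in the Sca7 table.

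Complex I oxidises NADH and is the largest entry point of the chain. None of its 33 members was called in a genotype comparison of either line. At 4 weeks 13 of 33 were above 0 with a median of -0.025, at 9 to 12 weeks 23 of 33 with a median of 0.040, and in the Sca7 line 21 of 33 with a median of 0.010. The count of 23 at the older age became 12 without knock-in replicate 6 and 32 without knock-in replicate 5.

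Ndufa9, which sits where the arms of the complex meet, was 10.97, 11.05 and 11.10 in Sca1 knock-in mice of 4 weeks and 10.94, 10.82 and 10.95 in wild type. All knock-in values were higher than all wild-type values, and the difference of 0.13 had an adjusted p of 0.742 in limma. Ndufb9, a subunit of the membrane arm, likewise did not overlap at 4 weeks (0.12, adjusted p = 0.742 in limma) and differed by 0.15 over both ages (adjusted p = 0.341). In all, 5 members lay wholly above and 3 wholly below wild type at 4 weeks (6.28% and 7.24% of all genes), among them Ndufb1 above and Ndufa10 and Ndufs1 below.

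Ndufa13, an accessory subunit also studied as GRIM-19, was 12.11, 11.84 and 12.20 in older knock-in mice and 11.92, 11.66 and 11.87 in wild type. The ranges overlapped, and the difference was 0.24 (interval -0.0077 to 0.48, adjusted p = 0.568 in limma). Ndufb6, a membrane subunit, differed by 0.22 (adjusted p = 0.588). Ndufa10, a subunit related to nucleoside kinases, was in the Sca7 line 12.25, 12.23, 12.09, 12.01 and 11.95 in knock-in and 12.03, 11.92, 12.05, 11.98 and 11.98 in wild type. Knock-in replicates 1 and 2 were high replicate 3 was just above all wild-type values and the other 2 lay within their range, with a difference of 0.11 (adjusted p = 0.986 in limma). Ndufs8, a core iron-sulfur subunit, differed by 0.093 there (adjusted p = 0.986).

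Complex II oxidises succinate and also belongs to the citric acid cycle. Its 4 subunits stayed within 0.069 of wild type in every genotype comparison. At 4 weeks Sdha, the flavoprotein with the active site, differed by -0.069, Sdhb, the iron-sulfur subunit, by 0.029, and the membrane anchors Sdhc and Sdhd by 0.062 and 0.057. The same genes differed at 9 to 12 weeks by 0.042, -0.010, 0.050 and 0.035. For the Sca7 line the differences were -0.0014, 0.055, 0.016 and -0.062, with adjusted p from 0.986 to 0.999 in limma.

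Sdha was the member of complex II with the smallest limma p between ages in both genotypes, and no complex II member was called. In each genotype 3 of the 4 subunits were higher in the older mice (63.0% of all genes in wild type and 54.1% in knock-in). The largest difference in wild type, 0.194, was that of another subunit. The values of Sdha at 4 weeks were 11.94, 11.84 and 11.68 in knock-in and 11.79, 11.98 and 11.89 in wild type. In the older mice they were 12.12, 12.10 and 12.10 in knock-in and 12.06, 12.10 and 12.03 in wild type. The older values lay above the younger ones in both genotypes, by 0.29 in knock-in (interval 0.12 to 0.45, adjusted p = 0.0991 in limma) and 0.17 in wild type (0.0095 to 0.34, adjusted p = 0.364). The second Sdha probe set also ran higher in the older mice, with 11.94 ± 0.070 against 11.78 ± 0.064 in knock-in and 11.92 ± 0.053 against 11.78 ± 0.056 in wild type (SD, n = 3).

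Complex III passes electrons from ubiquinol to cytochrome c. No member was called between genotypes. Of its 8 members, 2 were above 0 at 4 weeks (median -0.053), 4 at 9 to 12 weeks (median -0.0080) and 8 of 8 in the Sca7 line, where the differences were small, from 0.0028 for Uqcrh to 0.051 for Uqcrfs1, the Rieske iron-sulfur protein. Among the Sca7 arrays, knock-in replicate 1 held the highest value of its group for 51 of 85 members (60%, against 32% of all genes).

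Uqcrc1, a core protein of complex III, was 11.36, 11.45 and 11.42 in Sca1 knock-in mice of 4 weeks and 11.42, 11.16 and 11.23 in wild type. In older mice it was 11.31, 11.33 and 11.40 in knock-in and 11.28, 11.25 and 11.14 in wild type. The groups overlapped at 4 weeks and not at 9 to 12 weeks, and over both ages the difference was 0.13 (interval 0.011 to 0.25, adjusted p = 0.350 in limma). Uqcrc2, the partner core protein, was lower in knock-in by 0.14 at 4 weeks and 0.24 at 9 to 12 weeks, the latter with 12.13 in knock-in replicate 4 and 12.49 in wild-type replicate 4 against 12.80 to 13.13 in the other 4 arrays. Both low arrays were the 9-week mice. Uqcrb, which binds ubiquinone, differed by 0.19 at 9 to 12 weeks (adjusted p = 0.588 in limma).

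Complex IV reduces oxygen, and its small nuclear subunits come in tissue forms. The 3 largest genotype differences among all members were here, and none was called. They belong to Cox7c at both ages and Cox6b2 at 9 to 12 weeks, all lower in the Sca1 knock-in mice. Of the 15 members tested, 8 were above 0 at 4 weeks (median 0.0070), 10 at 9 to 12 weeks (median 0.091) and 10 in the Sca7 line (median 0.017).

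Cox6b2 encodes a form of subunit 6b known from testis, while Cox6b1 encodes the common form. Its values in the Sca1 knock-in mice were 5.75, 5.66 and 5.77 at 4 weeks and 5.06, 5.01 and 5.36 at 9 to 12 weeks. In wild type they were 5.73, 5.73 and 5.95 at 4 weeks and 5.74, 5.67 and 5.73 at 9 to 12 weeks. All 3 older knock-in mice lay below all 9 other mice, and the other 3 groups overlapped.

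Cox6b2 fell by 0.59 between 4 weeks and 9 to 12 weeks in the knock-in mice (interval -0.85 to -0.32, adjusted p = 0.0431 in limma), a factor of 1.5. It was the single member called with age in the knock-in mice (1.16% of all genes were called, 0.836% as lower). In wild type the same difference was -0.085 (adjusted p = 0.854), and the test of knock-in against wild-type age difference gave -0.50 (unadjusted p = 0.0124, adjusted p = 0.999 in limma). Between genotypes at 9 to 12 weeks the difference was -0.57 (interval -0.84 to -0.31, adjusted p = 0.114), and at 4 weeks -0.072.

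The call was narrow. It was lost when any 1 of the 12 Sca1 arrays except knock-in replicate 6 of the older group was left out (adjusted p from 0.052 to 0.153 in limma) and, for instance, with no filter on dim probe sets (0.0612). The gene has 1 probe set. In the Sca7 line Cox6b2 was 8.24, 8.18, 7.68, 8.38 and 8.28 in knock-in and 8.16, 8.23, 8.24, 8.13 and 8.29 in wild type, and knock-in replicate 3 lay apart from the others, which overlapped with wild type.

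Markers of other cells also differed with age in these knock-in mice, in both directions. Of 7 myelin genes, 6 were called lower, and their mean level ran from 12.00 to 12.54 in the 4-week arrays and from 11.13 to 11.29 in the older ones. Of the 7 granule cell markers 0 were called, with mean levels from 11.75 to 11.80 and from 11.41 to 11.72. All 5 choroid plexus markers were higher in the older mice (1 called, median difference 1.01), with mean levels from 7.15 to 8.62 and then from 8.68 to 9.45. All 5 meningeal fibroblast markers were lower (1 called, median -0.41), with mean levels from 6.61 to 6.99 and then from 5.79 to 6.33. Cidea was called higher (0.90, adjusted p = 0.0218 in limma). Bergmann glia and astrocyte levels ran from 11.37 to 11.46 and then from 11.15 to 11.32. Endothelial and mural levels ran from 7.26 to 7.52 and then from 6.99 to 7.10. Purkinje cell, interneuron and microglia levels overlapped between ages. Wild-type mice showed shifts in the same directions for myelin, granule cells and choroid plexus. Their mean levels ran from 12.11 to 12.32 and then from 11.32 to 11.55 for myelin, and from 11.84 to 12.01 and then from 11.54 to 11.76 for granule cells. For choroid plexus they ran from 8.17 to 8.69 and then from 8.87 to 9.26. The meningeal fibroblast levels overlapped between ages in wild type (6.60 to 7.15 and 6.31 to 6.69). So did those of Bergmann glia and astrocytes and of endothelial and mural cells. The part of these markers in the Cox6b2 result was not tested.

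Cox7c encodes a small subunit of complex IV with no tissue form. Its gene lies at chr13:86044798-86046795 (GRCm38.p6), on the chromosome of Atxn1 (chr13:45549755-45964991). Its brighter probe set read 5.31, 5.59 and 5.75 in knock-in and 5.65, 6.40 and 6.31 in wild type at 4 weeks. At 9 to 12 weeks it read 5.70, 5.35 and 5.47 in knock-in and 5.87, 6.05 and 6.45 in wild type. The groups overlapped at 4 weeks through wild-type replicate 1, and not at 9 to 12 weeks.

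The Cox7c difference was -0.57 at 4 weeks (adjusted p = 0.742 in limma), -0.61 at 9 to 12 weeks (adjusted p = 0.397) and -0.59 over both ages (interval -0.92 to -0.27, adjusted p = 0.127). The other probe set of Cox7c went the other way, with 4.64 ± 0.29 in knock-in against 4.20 ± 0.13 in wild type at 4 weeks and 4.35 ± 0.39 against 4.17 ± 0.27 at 9 to 12 weeks (SD, n = 3). In the Sca7 line the brighter probe set was 7.59 ± 0.12 in knock-in and 7.60 ± 0.21 in wild type (SD, n = 5). The other members on chromosome 13 (Sdha, Ndufs4, Uqcrb and Uqcrfs1) were not called in any comparison.

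Among the other subunits of complex IV, Cox6c was 12.57, 12.45 and 12.76 in older Sca1 knock-in mice and 12.55, 12.33 and 12.23 in wild type. The ranges overlapped, with a difference of 0.22 (adjusted p = 0.532 in limma). Cox4i2 differed by 0.29 at that age (adjusted p = 0.499), at levels from 2.51 to 3.19, close to the filter. Cox6a1 was in the Sca7 line 14.65, 14.55, 14.63, 14.56 and 14.61 in knock-in and 14.59, 14.50, 14.57, 14.48 and 14.45 in wild type. The ranges overlapped, and the difference of 0.085 had the smallest p among the members in that line (interval 0.0042 to 0.17, unadjusted p = 0.0409, adjusted p = 0.986 in limma). Cox6a2 there was 3.73 and 3.70 in wild-type replicates 1 and 4 and between 3.06 and 3.13 in the other 8 arrays (difference -0.24, adjusted p = 0.986).

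**Figure D4:**
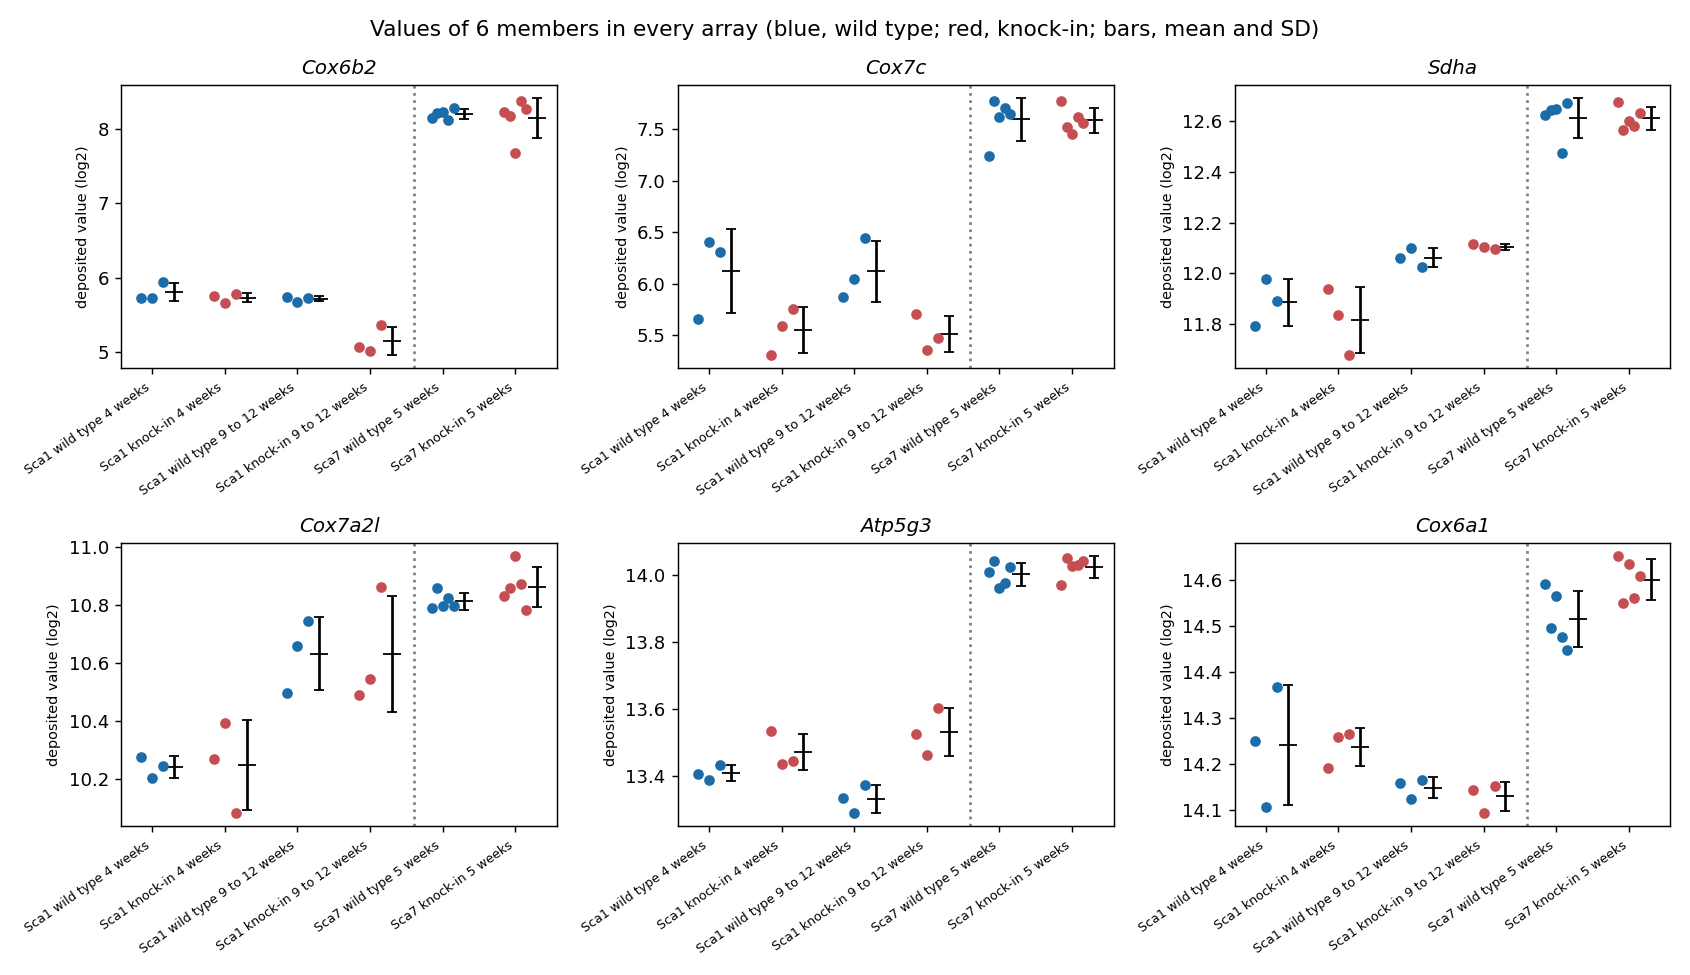
Deposited log2 values of 6 members in all 22 arrays, by group, with the mean and SD beside the points (n = 3 in the Sca1 groups and 5 in the Sca7 groups), on axes that do not start at 0. The 3 Sca1 knock-in mice of 9 to 12 weeks lie lowest for Cox6b2, and the 6 older Sca1 mice lie above the 6 younger for Sdha and Cox7a2l. Values left and right of the dotted line come from separately processed tables and are not comparable.

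Complex V makes ATP, and its genes encode the catalytic head, the rotating ring and the stalks. None of the 17 members was called between genotypes. At 4 weeks 9 of 17 were above 0 (median 0.012) and in the Sca7 line also 9 of 17 (median 0.0040). At 9 to 12 weeks 16 of 17 were above 0 (median 0.067), where 48.1% of all genes were. Without knock-in replicate 6 this count was 9 of 17 and the median 0.027, and without knock-in replicate 5 it was 17 of 17 and 0.15.

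Atp5g3, 1 of 3 genes that encode the same c-ring peptide, was 13.53, 13.46 and 13.60 in older Sca1 knock-in mice and 13.33, 13.29 and 13.37 in wild type. All knock-in values were higher, by 0.20 on average (interval 0.065 to 0.33, adjusted p = 0.314 in limma), a factor of 1.15. At 4 weeks it was 13.532, 13.434 and 13.443 in knock-in and 13.404, 13.387 and 13.433 in wild type, nearly touching at 13.434 and 13.433, with a difference of 0.062 (adjusted p = 0.795). The Sca7 difference was 0.022. Altogether 2 members lay wholly above wild type at 9 to 12 weeks, Atp5g3 and Uqcrc1, and 2 wholly below, Cox6b2 and Cox7c (4.41% and 7.71% of all genes).

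Atp5b, the catalytic beta subunit, was 13.71, 13.72 and 13.70 in knock-in of 4 weeks and 13.58, 13.47 and 13.65 in wild type. The groups did not overlap, and the difference was 0.14 (interval 0.0075 to 0.28, adjusted p = 0.742 in limma). At 9 to 12 weeks it was 0.060 and in the Sca7 line -0.0074. Atp5pb, the b subunit of the stalk, differed by 0.16 at 4 weeks (adjusted p = 0.742). In the Sca7 line Atp5c1, the gamma subunit of the rotor, and Atp5o, which joins stalk and head, differed by 0.085 and 0.077 (adjusted p = 0.986 for both in limma).

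Most of the 8 assembly factors had values below wild type, and none was called. At each Sca1 age 1 of 8 was above 0 (50.4% and 48.1% of all genes), with medians of -0.12 at 4 weeks and -0.13 at 9 to 12 weeks, and in the Sca7 line 2 of 8 (52.9% of all genes) with a median of -0.041. The count was 3 of 8 (median -0.031) at 4 weeks without knock-in replicate 3. For the older age it was 4 of 8 (median -0.016) without knock-in replicate 5 and 3 of 8 without wild-type replicate 4. Ndufaf4 was 8.56, 8.67 and 8.97 in knock-in of 4 weeks and 9.00, 8.82 and 9.12 in wild type, with overlapping ranges and a difference of -0.25 (adjusted p = 0.742 in limma). Its dimmer probe set did not overlap at 4 weeks, with 7.858 to 8.131 in knock-in and 8.268 to 8.491 in wild type. With age in knock-in that probe set rose from a mean of 7.96 to 8.47, whereas the brighter one went from 8.73 to 8.68. Ndufaf1, another complex I factor, differed by -0.24 at 4 weeks and -0.096 at 9 to 12 weeks (adjusted p = 0.742 and 0.854). Sdhaf2, which helps attach the flavin to Sdha, differed by -0.15 at 9 to 12 weeks (adjusted p = 0.730). A list of 27 other assembly factors and chaperones of the chain did not lie to 1 side, with 13 of 27 above 0 at each age.

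Other genes differed between Sca1 genotypes at 9 to 12 weeks beside these members. The 8 Purkinje cell markers had mean levels from 12.54 to 12.60 in knock-in arrays and from 12.73 to 12.82 in wild type, and 1 of 8 was called lower. The myelin markers ran from 11.13 to 11.29 and from 11.32 to 11.55, with 0 of 7 called. The 6 microglia markers ran from 6.25 to 6.28 in knock-in and from 6.39 to 6.42 in wild type. Cidea was higher in knock-in, from 7.39 to 7.89 against 6.81 to 7.015. Granule cell, Bergmann glia with astrocyte, and choroid plexus levels overlapped between genotypes. The Purkinje cell levels also did not overlap at 4 weeks, from 12.54 to 12.67 in knock-in and from 12.73 to 12.75 in wild type. The part of these markers in the members' differences was not tested.

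With age, wild-type mice showed no called member (0.434% of all genes), and 35 of 85 were higher at 9 to 12 weeks than at 4 weeks, beside 63% of all genes. In knock-in mice 60 of 85 were higher, beside 54.1% of all genes. By complex, complex IV had 4 of 15 higher in wild type and 9 in knock-in, complex V 3 of 17 and 10, complex I 16 of 33 and 27, complex III 2 of 8 and 4, and the assembly factors 7 of 8 in both. Single arrays moved these counts in both genotypes. In knock-in mice the count over all members became 41 without replicate 6 of the older group and 72 without replicate 5. In wild type it became 49 without replicate 3 of 4 weeks, 47 without replicate 5 of the older group and 28 without replicate 2 of 4 weeks. The wild-type count of complex V became 11 of 17 without replicate 3 of 4 weeks, and 9 and 7 of 17 without replicates 5 and 6 of the older group. Without overlap between ages, 3 members were higher and 6 lower in wild type (14.4% and 6.54% of all genes) and 7 higher and 3 lower in knock-in (9.28% and 8.03%). Limma's unadjusted p was under 0.05 for 2 members higher and 1 lower in wild type (8.29% and 4.39% of all genes) and for 5 higher and 1 lower in knock-in (8.69% and 6.67%).

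Cox7a2l, which helps complexes III and IV form supercomplexes, was 10.28, 10.20 and 10.25 in wild type of 4 weeks and 10.496, 10.658 and 10.744 at 9 to 12 weeks. In knock-in mice it was 10.27, 10.39 and 10.08 and then 10.49, 10.55 and 10.86. The older mice were higher without overlap in both genotypes, by 0.39 in wild type (adjusted p = 0.166 in limma) and 0.38 in knock-in (adjusted p = 0.125). The 2 other probe sets of Cox7a2l also read higher in older mice of both genotypes. Cox8a, the common form of subunit 8, was 11.92, 11.79 and 11.98 and then 11.56, 11.68 and 11.79 in wild type. The older values were lower (difference -0.23, adjusted p = 0.378 in limma), without overlap but by a margin smaller than these decimals show. In knock-in Cox8a differed by -0.0070.

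Ndufaf1 was higher in older knock-in mice without overlap, though by a narrow margin, with 7.993, 8.207 and 7.736 and then 8.417, 8.21 and 8.378 (0.36, adjusted p = 0.277 in limma). Ndufaf7, which methylates a complex I subunit, differed by 0.25 in wild type (adjusted p = 0.408). Ndufc2, a membrane subunit of complex I, differed by 0.20 in knock-in (adjusted p = 0.244), with replicate 6 at 13.03, while its dimmer probe set read 11.37 ± 0.11 in older and 11.41 ± 0.19 in younger mice (SD, n = 3). Across the 85 members, which are not independent, the age differences of the 2 genotypes share no array and had a Pearson correlation of 0.59 (0.68 over all genes).

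**Figure D5:**
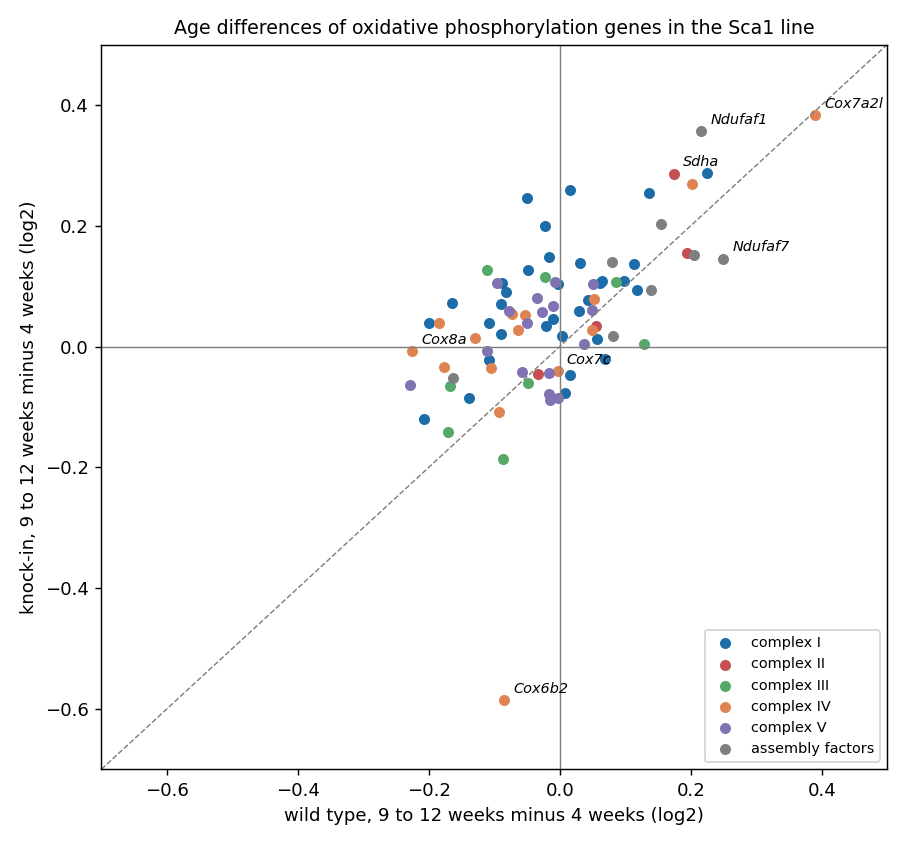
Difference between 9 to 12 weeks and 4 weeks (log2) in Sca1 wild type (horizontal) and knock-in mice (vertical), 3 against 3 arrays each, for the 85 members tested, coloured by complex, with the dashed line marking equal differences. Cox7a2l and Sdha are above 0 on both axes, and Cox6b2 lies at -0.085 in wild type and -0.59 in knock-in.

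Of the members, 46 have several probe sets in the Sca1 table that passed the filter, and these probe sets did not always share a direction. All probe sets of a gene had the same sign for 21 of 46 members at 4 weeks, for 32 at 9 to 12 weeks and for 24 of 45 in the Sca7 line. Across the members the Sca1 differences of 4 weeks and of 9 to 12 weeks had the same sign for 52 of 85 (61.2%, against 67.8% of all genes). The Sca7 differences had the sign of the Sca1 differences of 4 weeks for 43 of 84 members (53.4% of all genes). They had the sign of those of 9 to 12 weeks for 42 of 84 (52.4% of all genes). These comparisons share no arrays.

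The neighbouring pathways were read from lists of genes. No gene of the citric acid cycle (17 tested), glycolysis (14), the regulators of mitochondrial biogenesis (17), the mitochondrial ribosome (74) or the other chain components such as cytochrome c (16) was called in any comparison, nor was one of 27 further assembly factors or of 44 cytosolic ribosomal proteins. Beside the members' 57 of 85, the older Sca1 genotype comparison had 9 of 17 citric acid cycle genes, 8 of 14 glycolytic genes, 28 of 74 mitochondrial ribosomal genes and 37 of 44 cytosolic ribosomal genes above 0. With age the ribosomal genes stood higher in both genotypes, 66 and 65 of 74 mitochondrial and 40 and 42 of 44 cytosolic ones in wild type and knock-in. The medians were 0.12 and 0.17 for the mitochondrial and 0.15 and 0.26 for the cytosolic ribosome, against -0.016 and 0.054 for the members.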

How the data were processed

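The authors deposited 1 table per line with a value for each probe set and array on a log2 scale, made with GCOS 1.1 per the submitters' processing notes. The background correction and summary method are not given in the sources used here, and the base of the logarithm was inferred from the range. The 22690 probe sets are the same in both tables, and 64 controls among them were dropped. Symbols came from the platform annotation. The brightest single-symbol probe set of each gene was used, and the dimmest 25% of probe sets (means under 2.80 in the Sca1 and 2.71 in the Sca7 table) were not tested, which left 9452 and 9488 genes.

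Each table was fitted by itself in R 4.3.3 with limma 3.58.1 (lmFit, eBayes with intensity trend), with a mean for each group and 1 common variance per gene. Tests were two-sided and adjusted over all genes tested. Within-group scatter over 3 or 5 mice sets the precision. The scripts were tested on simulated data.

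The members and gene lists were chosen with earlier results of these data known. Genes named are complex II, the tissue forms of complex IV, members called, in each comparison the 2 members of each complex (1 assembly factor) with the smallest p, and some members whose probe sets disagree. Ndufb1, Ndufs1 and Ndufc1 were named after their values were seen.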

Additional observations from a re-analysis of the deposited data

Results flagged for a closer look

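Among the 114 groups of 5 Sca7 mice examined (members the naming rule covers and the complex medians), 18 held 1 array whose gap to its nearest neighbour was over 0.71 of the group's range, Dixon's 95% critical value for 5. Chance flags about 1 in 20 groups, and over all members 22 of 174 groups were past it.

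Knock-in replicate 1 was the array set apart for 6 genes. It was high for Atp5k at 12.768 (the others from 12.649 to 12.681), Cox8b at 5.793 (4.953 to 5.192), Ndufa4 at 13.472 (13.347 to 13.379) and Uqcrq at 12.193 (11.923 to 12.0), and low for Atp5g3 at 13.968 (14.027 to 14.051) and Cox4i2 at 2.054 (2.138 to 2.166). Knock-in replicate 4 was high for Atp5pb at 14.031 (13.733 to 13.811) and Ndufaf4 at 9.725 (9.328 to 9.415) and low for Uqcrb at 14.014 (14.109 to 14.146). Knock-in replicate 3 was low for Cox6b2 at 7.68 (8.183 to 8.383).

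In wild type, replicate 4 was low for Cox4i1 at 14.445 (14.488 to 14.498), Sdha at 12.473 (12.624 to 12.671) and Sdhaf1 at 8.67 (8.881 to 8.947) and high for Ndufaf7 at 8.781 (8.633 to 8.661). Replicate 5 was low for Atp5pb at 13.59 (13.837 to 13.92), and replicate 2 was low for Ndufaf4 at 9.256 (9.52 to 9.612). Replicate 1 was high for Uqcrh at 13.307 (13.233 to 13.246) and for the median deviation of complex V at 0.0247 (-0.0148 to -0.0038).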

How the results depend on the processing

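The absence of called members was the same in the 4-week, age-change, wild-type age and Sca7 comparisons under all alternatives run. Limma's array weights called 1 member at 9 to 12 weeks (Atp5g3) and 2 over both ages (Atp5g3 and Cox7c), and 5 with age in knock-in mice (Cox6b2, Cox7a2l, Ndufa6, Ndufc2 and Sdha). With age in knock-in mice the count was 0 with no filter, with quantile normalization, with only the 2 groups and without both 9-week mice. It ran from 0 to 1 with 1 array left out. With the lowest 50% of probe sets left out it was 0 of 79 members tested. That filter removed Cox6b2 itself, so the setting could not test its call. With array medians made equal Sdha was called (adjusted p = 0.0494 in limma) and Cox6b2 was not (0.0548). The median of the change of the genotype difference was 0.1629 with array weights and ran from -0.0122 to 0.1475 with 1 array left out, and the Sca7 median was 0.0423 with array medians made equal. With 1 array left out the members' median ran from -0.0573 to 0.0305 at 4 weeks, from -0.023 to 0.1255 at 9 to 12 weeks, and from -0.0088 to 0.128 with age in knock-in. Sdhc at 9 to 12 weeks ran from -0.003, without wild-type replicate 4, to 0.091 with 1 array left out, and with the median over probe sets Uqcrq was 0.006 with age in wild type, Atp5o -0.016 and Atp5c1 -0.034 in the Sca7 line. The causes were not tested. Counts with arrays left out were added after the values were seen. Over all genes, calls at 9 to 12 weeks moved from 14 to 258 with array weights, 152 without knock-in replicate 4 and 78 without both 9-week mice. With age in knock-in they moved from 110 to 697 with array weights and 21 with only the 2 groups.

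Same-numbered arrays deviated together in part of the older Sca1 mice (correlations of 0.413 for number 4, both 9 weeks old, 0.458 for number 5 and 0.013 for number 6), and not at 4 weeks (-0.212 to 0.044) or in the Sca7 table (-0.129 to 0.110). The labels do not tie the numbers to a litter or day, so the mice were not treated as pairs. A replicate block changed no count of members called (0 in each genotype comparison) and left the median at 0.0403 at 9 to 12 weeks. The block moved calls over all genes from 14 to 6 at 9 to 12 weeks and from 33 to 20 over both ages. It could not be fitted for the age differences, because numbers differ between ages. Low numbers of arrays limit what could be seen.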
